A study of Sus scrofa with 5 samples.

Results

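The small leucine-rich proteoglycans (SLRPs) are described here in pig skin grafts through 8 of their genes: decorin (DCN), biglycan (BGN), asporin (ASPN), lumican (LUM), fibromodulin (FMOD), prolargin (PRELP), keratocan (KERA) and osteoglycin (OGN). They were chosen by name, as the rows of the 5 deposited matrices that carry these symbols, and all 8 were found among 20286 gene identifiers. Single-cell RNA was measured in 5 pig skin libraries, 1 per group. In 4 of them a full-thickness wound had been covered with a split-thickness skin graft. The untreated grafts at day 7 and day 90 received no inhibitor. The inhibitor grafts at day 7 and day 90 lay under hydrogel dressings, changed every other day, that carried an inhibitor of focal adhesion kinase (FAK), a kinase that signals from the sites where cells grip their matrix. Unwounded pig skin was the reference. The sources used here do not state strain, age, body site or how many pigs stand behind each library. A difference between libraries cannot be told apart from a difference between animals, and there is no replicate check and no p-value.

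SLRPs are secreted core proteins built of leucine-rich repeats, most of which carry chondroitin, dermatan or keratan sulfate chains. Several bind collagen fibrils and influence their diameter and spacing, and decorin and biglycan also bind TGF-beta. In dermis they are made mainly by fibroblasts and are part of the collagen matrix that is rebuilt in a scar. By sequence, decorin, biglycan and asporin form class I, lumican, fibromodulin, prolargin and keratocan class II, and osteoglycin belongs to class III.

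The libraries held between 18485301 and 79671374 counts of unique molecular identifiers (UMIs, each standing for 1 captured RNA molecule), the fewest in unwounded skin. After filtering 26842 cells remained, between 1542 and 8653 per library. Cells were clustered without the 8 genes, and clusters were named from marker genes that did not include them. Fibroblast-like cells numbered 1410 (untreated) and 1416 (inhibitor) at day 7, 2093 and 789 in the same order at day 90, and 259 in unwounded skin. All 14 fibroblast markers were detected in this class in every library, with a summed level between 76695 and 264424 UMIs per 1000000 UMIs. Cell barcodes recurred between libraries. Unwounded skin shared 152 barcodes with the inhibitor graft and 133 with the untreated graft of day 90, which were 8.07% and 7.06% of its barcodes. The untreated and inhibitor grafts of day 90 shared 70 barcodes, 1.71% of those of the inhibitor graft. Of these, 27 were kept in both grafts and 21 fell in the same class. The pairs that joined a day 7 library with another library shared 3 to 32 barcodes. The recurring barcodes that were kept in both unwounded skin and the untreated day 90 graft had a median of 65441 UMIs in the former and 1216 in the latter. Among fibroblast-like cells 5, 7, 20, 16 and 7 carried a recurring barcode, in the order of libraries above, and leaving out all such cells changed no count of SLRP genes given below.

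The 8 genes differed in how far they were restricted to fibroblasts. Fibroblast-like cells supplied 99.2% of all KERA UMIs, 98.6% of DCN, 98.2% of OGN, 97.6% of LUM, 93.4% of ASPN and 92.5% of FMOD UMIs over the 5 libraries. For PRELP the share was 72.2% and for BGN 57.9%. The cells that supplied most of the remainder were pericyte or smooth muscle-like, the contractile cells of vessel walls, with 31.4% of BGN, 18.6% of PRELP, 6.05% of FMOD and 4.07% of ASPN UMIs. These shares pool libraries that differed. In unwounded skin fibroblast-like cells supplied 45.5% of ASPN, 58.8% of FMOD and 30.0% of BGN UMIs, and pericyte or smooth muscle-like cells 28.4%, 25.9% and 41.4%. For PRELP the fibroblast-like share ran from 49.5% in the untreated day 7 graft to 89.7% in the untreated day 90 graft. For DCN, LUM, KERA and OGN it was at least 95.2% in every library. Levels are therefore given below within a class.

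**Figure D1:**
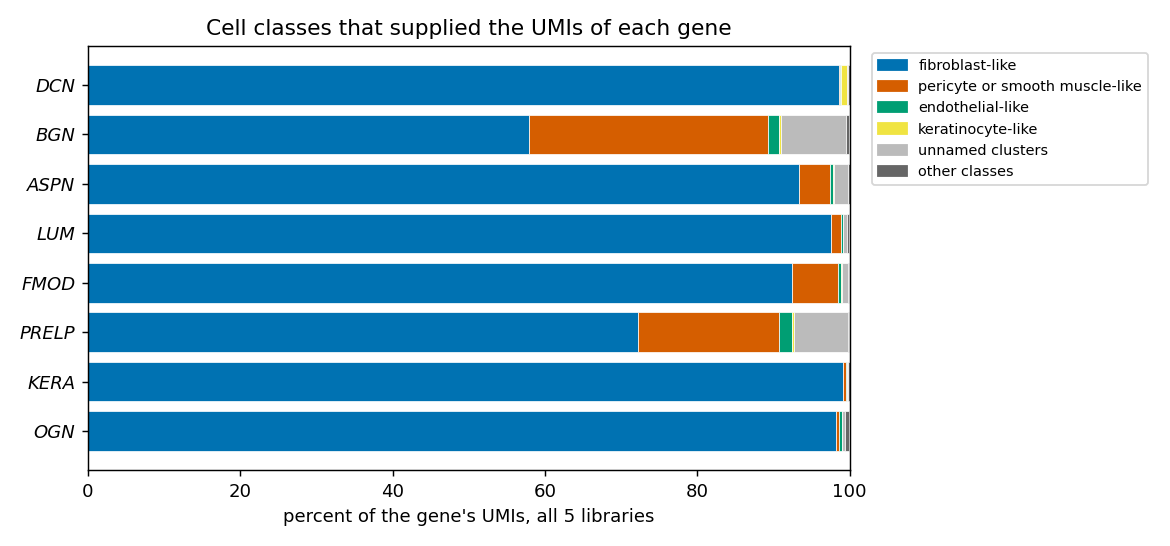
Stacked bars give the percent of each gene's UMIs, over all 5 libraries, that came from each cell class (x axis, 0 to 100%). Fibroblast-like cells held 99.2% of KERA but 57.9% of BGN, for which pericyte or smooth muscle-like cells held 31.4%.

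For detection at equal depth each cell was thinned to 2000 UMIs, and cells with fewer UMIs were left out. These were 105 and 96 fibroblast-like cells at day 7 (untreated graft first), 30 and 11 at day 90 and 8 in unwounded skin. T or NK-like cells had median depths near this limit, so many of them were left out. DCN was detected in 97.2% to 99.6% of thinned fibroblast-like cells across the 5 libraries and LUM in 88.9% to 97.6%. T or NK-like cells, which should lack these genes, gave 1.95% to 6.50% for DCN and 0% to 4.85% for LUM. Without thinning the ranges in fibroblast-like cells were 98.7% to 100% and 97.4% to 98.9%, at median depths of 10314 to 17559 UMIs, and in T or NK-like cells 2.53% to 8.70% and 0% to 6.02% at 1968 to 2408 UMIs. The DCN and LUM UMIs of T or NK-like cells are read as background. KERA gave no UMI in T or NK-like cells in any library, while 5.30% to 20.7% of thinned and 13.7% to 50.2% of unthinned fibroblast-like cells had it. After thinning, the median fibroblast-like cell had UMIs of 4 of the 8 genes in 4 libraries and of 5 in the untreated day 90 graft. At least 5 genes were found in 27.3% and 26.4% of cells at day 7 (untreated graft first), in 63.5% and 47.8% at day 90, and in 22.3% of those of unwounded skin.

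Levels are given as CPM, a gene's share of the UMI sum of the library's cells of that class, per 1000000. A gene was counted as higher or lower when its CPM ratio between 2 libraries reached 1.5-fold and its CPM was at least 50 in either library. This is a rule of size, not a test. Intervals are exact at 95% and cover counting error only.

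In class I, decorin, the dermatan sulfate proteoglycan that decorates collagen I fibrils, stood at 4150 CPM in the untreated graft and 4596 CPM under the inhibitor at day 7. At day 90 the levels were 4249 and 5830 CPM, and unwounded skin had 7139 CPM. All 4 grafts were below unwounded skin, and the inhibitor graft of day 90 was nearest to it. By UMIs DCN was the 8th most abundant gene of fibroblast-like cells in unwounded skin, the 13th in the inhibitor graft and the 22nd in the untreated graft of day 90, and the 32nd and 29th in the untreated and inhibitor graft of day 7. Its counting interval reached at most 1.30% from the value in any library.

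Biglycan, which resembles decorin and usually carries a pair of chains, had 1773 and 1771 CPM at day 7, 2298 and 1899 CPM at day 90 and 847 CPM in unwounded skin, with the untreated graft named first at each day. Every graft library lay above unwounded skin, by 2.09-fold in the untreated graft of day 7 (interval 2.01 to 2.18) and by 2.71-fold in that of day 90 (2.61 to 2.82). Asporin, which has a stretch of aspartates in place of sulfate chains, had 878 and 1066 CPM at day 7, 1622 and 935 CPM at day 90 and 160 CPM in unwounded skin. It showed the widest gap of class I between grafts and unwounded skin. ASPN was 5.48-fold (5.02 to 5.99) and 10.1-fold (9.28 to 11.1) higher in the untreated grafts of day 7 and day 90, and 5.83-fold (5.34 to 6.38) higher in the inhibitor graft of day 90. Thinned detection followed, with ASPN in 19.9% of fibroblast-like cells of unwounded skin and in 56.1% to 82.3% of those of the grafts, where 51.4% and 77.6% to 94.8% had it without thinning. The corresponding shares of T or NK-like cells were 0% to 1.63% with and 0% to 3.29% without thinning.

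Some markers of the pericyte or smooth muscle list moved with BGN and ASPN in fibroblast-like cells. The summed level of its 14 genes, all detected in every library, was 488 CPM in unwounded skin, 1625 and 1947 CPM at day 7 and 2580 and 1276 CPM at day 90. The contractile gene TAGLN was at 52.9 CPM in unwounded skin and between 754 and 1683 CPM in the grafts. The genes of the list did not all move together. RGS5 was at 17.1 CPM in unwounded skin, 34.9 and 36.0 CPM at day 7 and 10.2 and 9.19 CPM at day 90. DES was at 0.623 CPM in unwounded skin, 22.2 and 13.9 CPM at day 7 and 1.55 and 0.707 CPM at day 90. MYH11 and MCAM were also higher at day 7 than in unwounded skin. PDGFRB, NOTCH3, NDUFA4L2, KCNJ8 and ABCC9 were lower in every graft than in unwounded skin. PDGFRB was at 226 CPM in unwounded skin and between 143 and 218 CPM in the grafts. NOTCH3 was at 62.9 CPM in unwounded skin and between 9.5 and 23.0 CPM in the grafts. KCNJ8 was at 5.29 CPM and between 1.58 and 2.59 CPM. The part of such markers in the BGN and ASPN values was not tested.

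In class II, lumican, a keratan sulfate proteoglycan of cornea and dermis, had 3240 and 3179 CPM at day 7, 2265 and 2451 CPM at day 90 and 3782 CPM in unwounded skin. Over the class the day 90 grafts were the lowest libraries, 1.67-fold (1.64 to 1.70) and 1.54-fold (1.51 to 1.58) below unwounded skin in the untreated and inhibitor graft. Within a single cluster, given below, neither day 90 graft was 1.5-fold lower, and the day 7 grafts had the lowest LUM. Fibromodulin, which binds the same collagen fibrils and takes part in their crosslinking, was highest over the class where lumican was lowest, with 171 and 158 CPM at day 7, 536 and 377 CPM at day 90 and 72.8 CPM in unwounded skin. It was 7.36-fold higher in the untreated day 90 graft than in unwounded skin (6.47 to 8.40) and 5.17-fold higher in the inhibitor graft (4.54 to 5.92).

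Keratocan, best known from the corneal stroma, was highest in unwounded skin at 214 CPM. It had 30.0 and 28.1 CPM at day 7, and 49.8 and 116 CPM at day 90. No graft reached the unwounded level, and the shortfall was 7.16-fold (6.39 to 8.02) in the untreated graft at day 7, 4.30-fold (3.94 to 4.70) in that at day 90 and 1.85-fold (1.69 to 2.03) in the inhibitor graft at day 90. Prolargin, a basic SLRP that links matrix to basement membranes, had 38.9 and 37.1 CPM at day 7, 65.7 and 101 CPM at day 90 and 93.7 CPM in unwounded skin. The inhibitor graft of day 90 and unwounded skin did not differ beyond counting error (ratio 1.07, interval 0.947 to 1.22).

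Osteoglycin, the class III member, had 125 and 95.1 CPM at day 7, 513 and 313 CPM at day 90 and 375 CPM in unwounded skin. The day 7 grafts were the lowest libraries, and that without inhibitor lay 3.01-fold below unwounded skin (2.81 to 3.23). The 8 genes together took 1.04%, 1.09%, 1.16%, 1.20% and 1.27% of the UMIs of fibroblast-like cells in the untreated and inhibitor graft of day 7, those of day 90 and unwounded skin, so their sum varied much less than their mix.

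**Figure D2:**
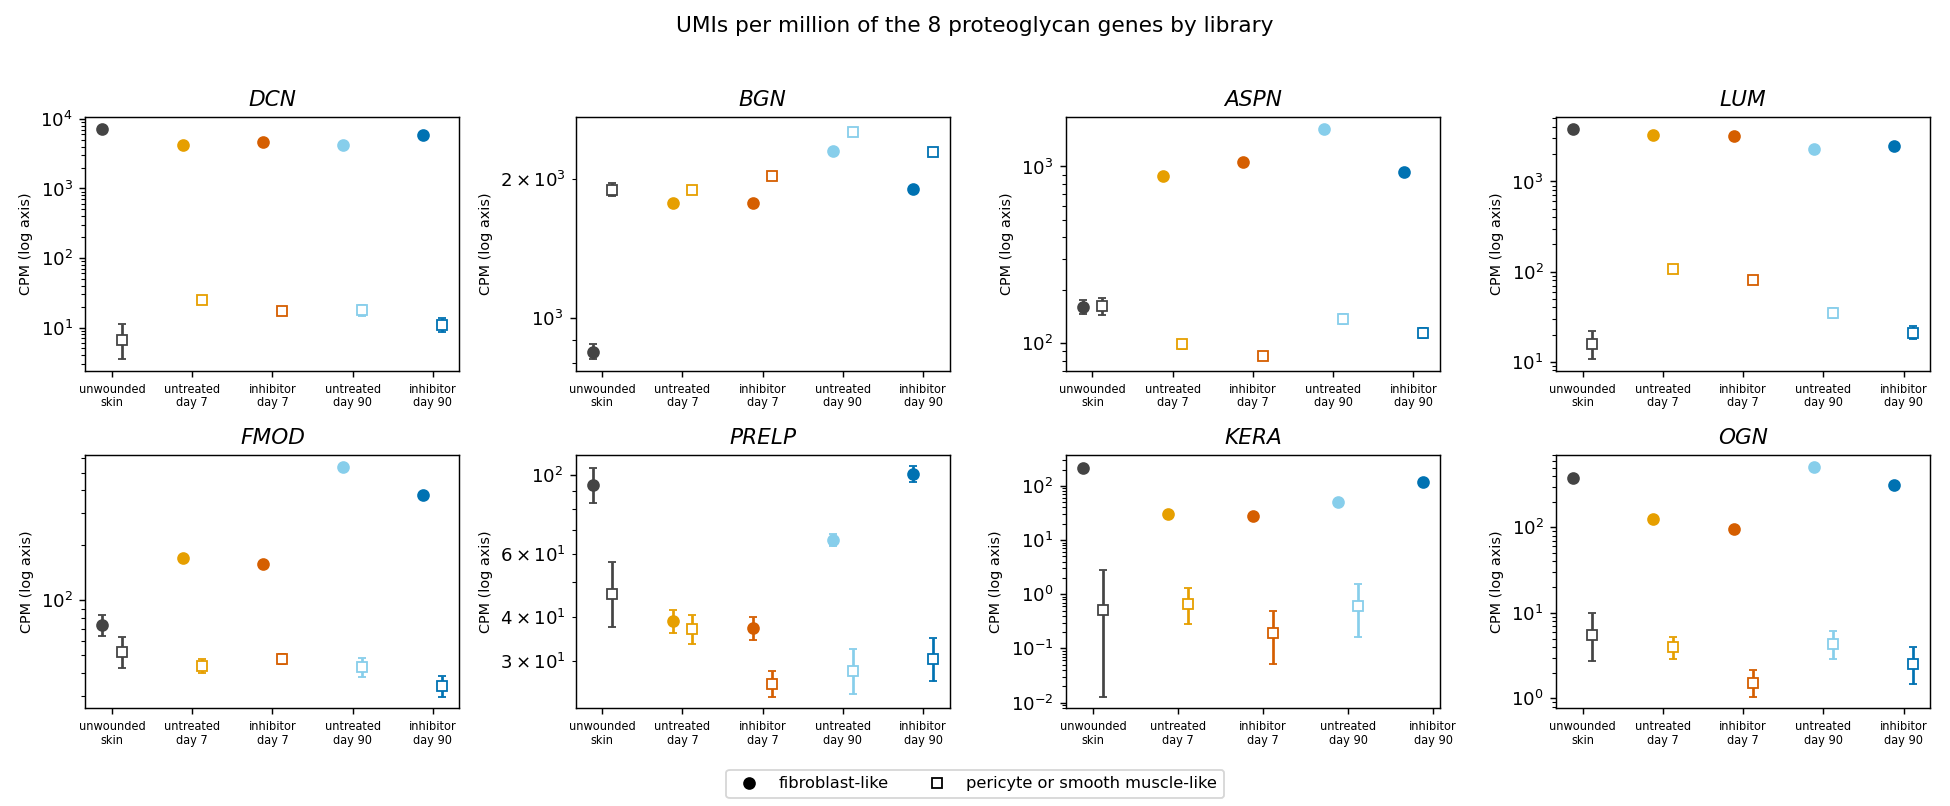
Each panel is 1 gene, the x axis names the library and the y axis is CPM on a log scale with its 95% counting interval, filled circles for fibroblast-like and open squares for pericyte or smooth muscle-like cells. In fibroblast-like cells ASPN ran from 160 CPM in unwounded skin to 1622 CPM in the untreated day 90 graft, KERA from 214 down to 28.1 CPM, and a library at 0 has no point.

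Against unwounded skin, BGN, ASPN and FMOD were higher in the untreated grafts of both days and in the inhibitor graft of day 90. In the untreated day 7 graft 3 SLRP genes were higher and 4 lower (DCN, PRELP, KERA and OGN) of 8 tested, where 36.7% of all genes tested were higher and 17.0% lower. The share of SLRP genes that was higher is thus near that of all genes, and the share that was lower is above it. In the untreated day 90 graft 3 were higher and 3 lower (DCN, LUM and KERA), beside 23.2% and 21.0% of all genes. In the inhibitor day 90 graft 3 were higher and 2 lower (LUM and KERA), beside 9.58% and 16.6%. In both day 90 grafts each share lay above that of all genes, with only 8 genes to count. The median log2 ratio of the 8 genes was -0.50, -0.03 and -0.08 in these comparisons, where that of all genes tested was 0.31, 0.15 and 0.03. The median over genes at 50 CPM in both libraries stood at 0.26, 0.16 and 0.05. Centring on it left the counts of higher genes at 3 each. Lower genes stayed at 4 in the untreated day 7 graft and at 2 in the inhibitor day 90 graft. In the untreated day 90 graft centring raised them from 3 to 4, adding PRELP at -0.68. The 3 comparisons share the unwounded library, which had the fewest fibroblast-like cells, so they are not independent of each other.

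Fibroblast-like cells fell into 5 clusters, which held different SLRP mixes. Cluster 1 (led by CLEC3B, APOD and C4A) held 96.9% of the fibroblast-like cells of unwounded skin. It held 12.5% and 4.80% at day 7 (untreated graft first) and 21.6% and 71.2% at day 90. Cluster 24 (CCN3, THBS4 and TNMD) held 10.8% and 14.1% at day 7, 54.9% and 24.6% at day 90 and no cell of unwounded skin. Cluster 17 (CFD and GREM1) held 50.6% and 45.0% at day 7 and at most 4.11% in the other libraries. Cluster 0 (MMP13, IL11 and MMP3) held 23.5% and 33.7% at day 7, 16.6% in the untreated day 90 graft and 4 cells of the inhibitor day 90 graft. Cluster 18 was led by cell cycle genes and held 2.32% to 2.72% of each library. A class value therefore rests on different clusters in different libraries.

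KERA was highest in cluster 1 in every library, at 99.2 to 219 CPM in the 5 libraries there, against 1.77 to 2.13 CPM in cluster 0. PRELP followed a similar split, with 93.8 to 122 CPM in cluster 1, 74.5 to 95.9 CPM in cluster 24 and 2.51 to 6.62 CPM in cluster 0. FMOD was highest in cluster 24 in every library that had at least 20 of its cells, at 450 to 732 CPM against 165 to 282 CPM in cluster 1 of the same grafts. The same held for ASPN, at 1679 to 2446 CPM in cluster 24 against 553 to 1055 CPM in cluster 1. OGN had 3.91 to 13.3 CPM in cluster 17 and 436 to 804 CPM in cluster 24. LUM was highest in cluster 17 in the 3 libraries with at least 20 of its cells, with 3360 to 4442 CPM in cluster 17 and 1681 to 2308 CPM in cluster 24. These clusters were built from other genes of the same cells, so these values are a description.

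**Figure D3:**
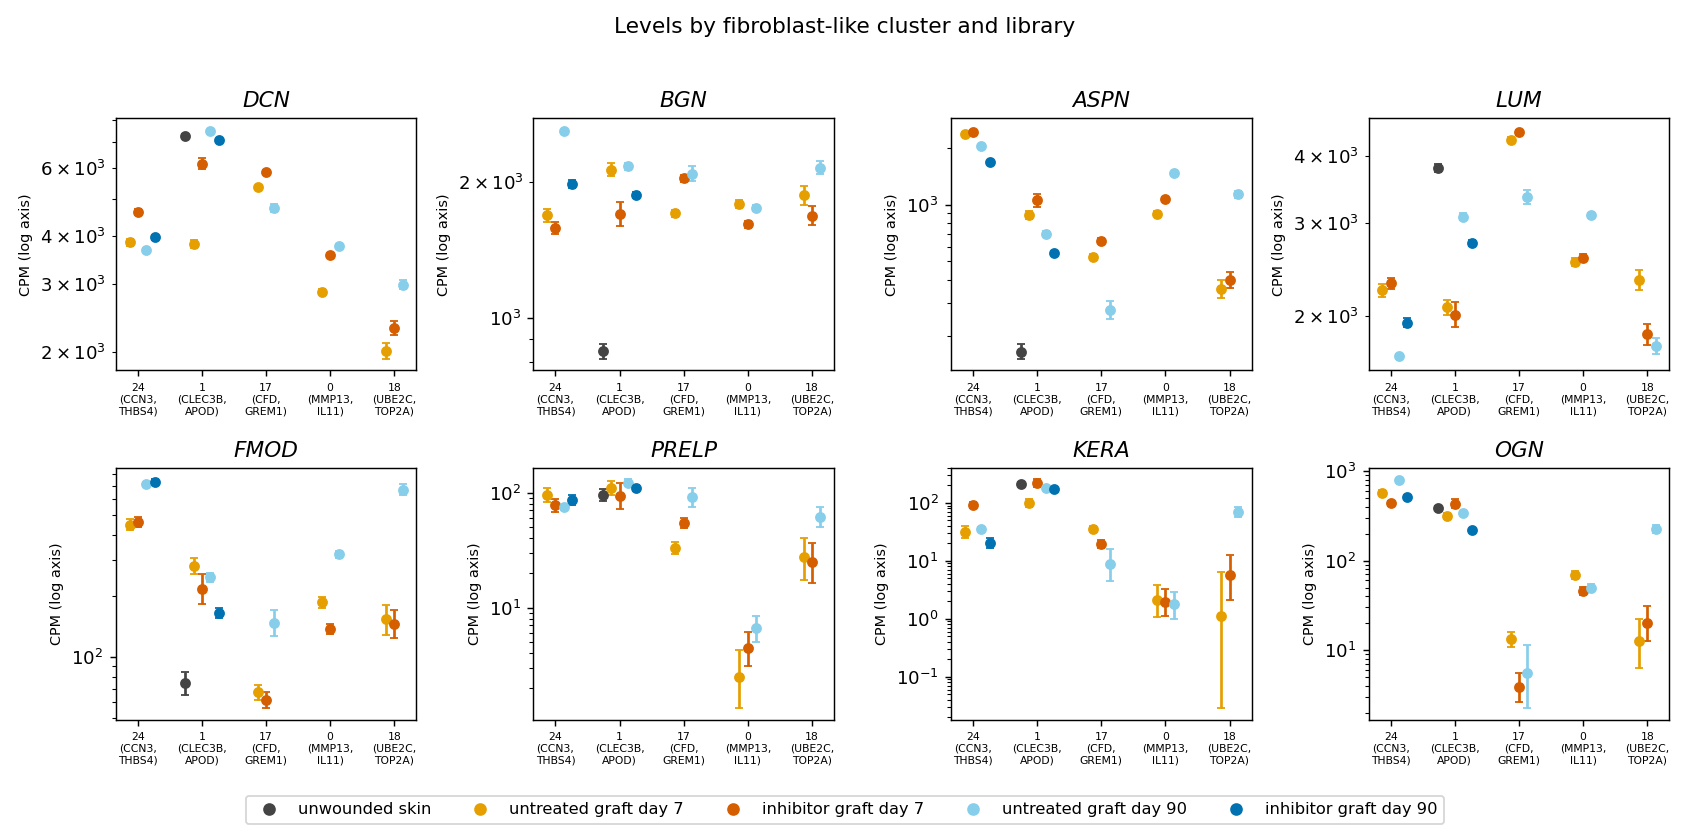
Each panel is 1 gene, the x axis names the fibroblast-like cluster, and the y axis is CPM on a log scale with its 95% counting interval, coloured by library, where the library had at least 20 cells of the cluster. KERA lay at 99.2 to 219 CPM in cluster 1 and near 2 CPM in cluster 0, and FMOD reached 732 CPM in cluster 24.

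Cluster 1 allowed grafts and unwounded skin to be compared within 1 cluster. BGN was 2.52-fold higher there in the untreated day 7 graft than in unwounded skin (interval 2.39 to 2.65), 2.56-fold in the untreated day 90 graft (2.46 to 2.67) and 2.21-fold in the inhibitor day 90 graft (2.12 to 2.31). ASPN was 5.32-, 4.23- and 3.33-fold higher, and FMOD 3.80-, 3.34- and 2.23-fold higher, in the same order. All 3 genes thus stayed past 1.5-fold within the cluster. DCN did not stay lower at day 90, with 7486 and 7086 CPM in the untreated and inhibitor graft beside 7263 CPM in unwounded skin, although it was 1.91-fold lower in the untreated day 7 graft (3799 CPM). LUM had 2078 and 2015 CPM at day 7 (untreated graft first), 3079 and 2747 CPM at day 90, with 3799 CPM in unwounded skin. It was thus 1.83-fold lower in the untreated day 7 graft, and 1.23- and 1.38-fold lower in the untreated and inhibitor day 90 grafts, inside 1.5-fold. KERA had 182 and 175 CPM in the day 90 grafts against 211 CPM in unwounded skin, also inside 1.5-fold, where over the class it was 4.30- and 1.85-fold lower. In the untreated day 7 graft KERA was 2.13-fold lower within the cluster, against 7.16-fold over the class. OGN and PRELP of that graft, 3.01- and 2.41-fold lower over the class, were inside 1.5-fold within the cluster, OGN at 316 against 386 CPM and PRELP at 109 against 95.8 CPM. OGN was 1.77-fold lower in the inhibitor day 90 graft than in unwounded skin within the cluster (218 against 386 CPM), where over the class it was 1.20-fold lower, inside 1.5-fold.

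The design sets each inhibitor graft against the untreated graft of the same day. At day 7, over all fibroblast-like cells, of 6 genes at 50 CPM or more, 0 were higher and 0 lower by 1.5-fold, where 3.13% and 4.07% of all genes were. Their ratios, inhibitor over untreated, ran from 0.763 for OGN (0.717 to 0.811) to 1.21 for ASPN (1.19 to 1.24), with BGN at 0.999 (0.984 to 1.01) and LUM at 0.981 (0.970 to 0.992). The 2 genes below 50 CPM had ratios of 0.937 for KERA (0.831 to 1.06) and 0.953 for PRELP (0.858 to 1.06).

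Within clusters some genes passed 1.5-fold at day 7. KERA was 2.21-fold higher in the inhibitor graft within cluster 1 (219 against 99.2 CPM, interval 1.75 to 2.77) and 2.89-fold higher within cluster 24 (92.1 against 31.8 CPM, 2.21 to 3.84). Within cluster 17, the largest, it had 19.4 against 35.4 CPM, both below the minimum of 50 CPM. DCN was 1.62-fold higher in cluster 1, and its ratios in clusters 17, 24 and 0 were 1.10, 1.20 and 1.25. PRELP was 1.64-fold higher in cluster 17 (54.3 against 33.1 CPM, 1.40 to 1.92), and OGN was 1.52-fold lower in cluster 0 (45.5 against 69.4 CPM). LUM ratios lay between 0.970 and 1.03 in the 4 clusters. The day 7 cells of cluster 1 were few, 68 in the inhibitor and 176 in the untreated graft.

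At day 90, 2 genes were higher in the inhibitor graft, KERA and PRELP, and 2 were lower, ASPN and OGN, of 8 tested, while 6.38% of all genes were higher and 5.57% lower. KERA was 2.32-fold higher (116 against 49.8 CPM, 2.17 to 2.48) and PRELP 1.53-fold (101 against 65.7 CPM, 1.43 to 1.63). ASPN was 1.74-fold lower (935 against 1622 CPM, 1.70 to 1.77) and OGN 1.64-fold lower (313 against 513 CPM, 1.59 to 1.69). KERA and ASPN in the inhibitor graft lay between the untreated graft and unwounded skin, and OGN lay below both. The ratios of DCN (1.37), LUM (1.08), BGN (0.826) and FMOD (0.703) were all within 1.5-fold. With 2 of 8 genes in each direction both shares are above those of all genes, although the genes are few. The median log2 ratio of the 8 genes was -0.08 and that of all genes tested -0.13. The median over genes at 50 CPM in both libraries was also -0.13, and with ratios centred on it OGN, at -0.58, no longer reached 1.5-fold.

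Within the clusters that both day 90 grafts held, the picture differed by gene. KERA had nearly the same level in cluster 1 of the inhibitor and untreated graft, 175 and 182 CPM (ratio 0.959, 0.886 to 1.04), and had 20.7 against 36.1 CPM in cluster 24, both below the minimum. Cluster 1 supplied 92.1% of the KERA UMIs of fibroblast-like cells in the inhibitor graft and 52.8% in the untreated graft. PRELP had ratios of 0.904 in cluster 1 and 1.16 in cluster 24. With the shared clusters given the same weight, the log2 ratios of KERA and PRELP went from 1.22 and 0.61 to -0.16 and -0.00, so neither gene was higher within these clusters.

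OGN was lower in the inhibitor graft in both clusters, 1.57-fold in cluster 1 (218 against 343 CPM) and 1.56-fold in cluster 24 (514 against 804 CPM), close to its class ratio. ASPN had ratios within 1.5-fold, 0.788 in cluster 1 (553 against 703 CPM) and 0.822 in cluster 24 (1679 against 2041 CPM). BGN had 0.863 and 0.766. FMOD was 1.5-fold lower in cluster 1 (165 against 248 CPM) and had a ratio of 1.03 in cluster 24 (0.990 to 1.07). DCN ratios were 0.947 and 1.08, and LUM ratios 0.892 and 1.16, below 1 in cluster 1 and above it in cluster 24.

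**Figure D4:**
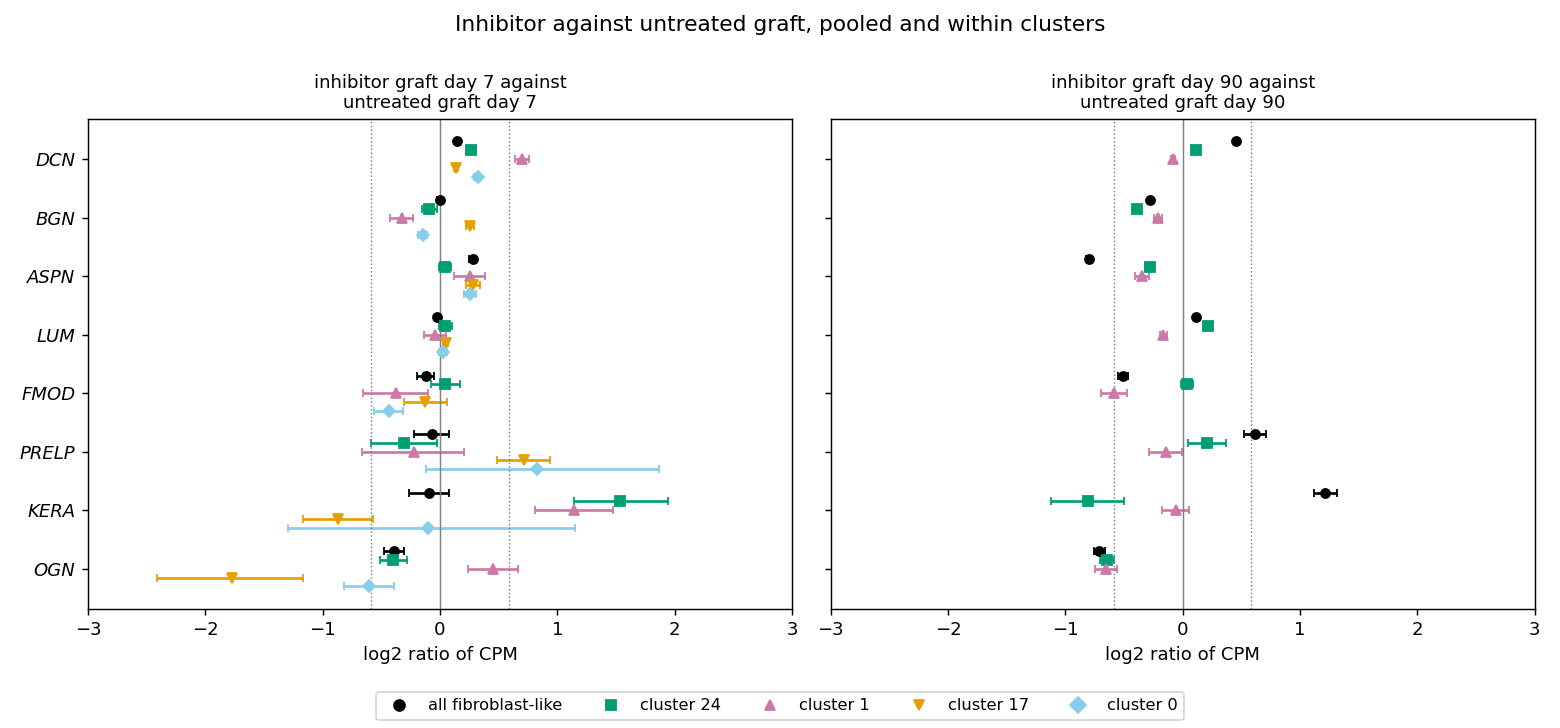
Log2 ratios of CPM, inhibitor over untreated graft, are on the x axis for the 8 genes (rows) at day 7 (left) and day 90 (right), over all fibroblast-like cells and within clusters, with 95% counting intervals and dotted lines at 1.5-fold. At day 90 KERA lies at 1.22 over the class but at -0.06 in cluster 1 and -0.80 in cluster 24, while OGN lies at -0.71, -0.66 and -0.64.

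Day 90 was also set against day 7 over all fibroblast-like cells. In the untreated grafts 4 of 7 tested genes were higher at day 90 than at day 7 and 0 lower, beside 8.87% and 18.4% of all genes. They were OGN (4.12-fold), FMOD (3.13-fold), ASPN (1.85-fold) and PRELP (1.69-fold). In the inhibitor grafts 4 of 8 were higher and 0 lower, beside 14.3% and 38.5%, namely KERA (4.12-fold), OGN (3.30-fold), PRELP (2.71-fold) and FMOD (2.39-fold). ASPN had a ratio of 0.877 there (0.858 to 0.896). The median over genes at 50 CPM in both libraries stood at -0.17 and -0.33 (log2) in these comparisons, and the median SLRP ratio 0.76 and 0.80.

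Within clusters the differences over time varied in direction. With the shared clusters given the same weight, 0 genes were higher in the untreated grafts, and in the inhibitor grafts 0 were higher and 2 lower (KERA and ASPN). In the untreated grafts OGN had day 90 to day 7 ratios of 1.40 in cluster 24, 1.09 in cluster 1 and 0.716 in cluster 0. ASPN was 1.64-fold higher in cluster 0 and 1.92-fold lower in cluster 17, with ratios of 0.795 in cluster 1 and 0.859 in cluster 24. FMOD was higher in clusters 17 (2.21-fold), 0 (1.72-fold) and 24 (1.59-fold), with a ratio of 0.879 in cluster 1. PRELP was 2.75-fold higher in cluster 17, and its ratios were 1.11 in cluster 1 and 0.776 in cluster 24. DCN and KERA were higher in cluster 1, 1.97-fold (7486 against 3799 CPM) and 1.84-fold (182 against 99.2 CPM), and BGN was 1.53-fold higher in cluster 24. In the inhibitor grafts KERA was 4.46-fold lower at day 90 in cluster 24 (20.7 against 92.1 CPM) and had 175 against 219 CPM in cluster 1. OGN was 1.99-fold lower in cluster 1 (218 against 433 CPM), with a ratio of 1.18 in cluster 24. ASPN was 1.91-fold lower in cluster 1 (553 against 1055 CPM) and had 0.686 in cluster 24. FMOD had ratios of 0.761 in cluster 1 and 1.58 in cluster 24, and PRELP 1.18 and 1.11.

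Pericyte or smooth muscle-like cells, 308 to 2432 per library, were the other large source of BGN. Their BGN level was 1896 and 2028 CPM at day 7, 2531 and 2284 CPM at day 90 and 1895 CPM in unwounded skin. It was steadier than in fibroblast-like cells, and in unwounded skin it was 224% of the fibroblast-like level. ASPN had 98.6 and 85.1 CPM at day 7, 137 and 115 CPM at day 90 and 162 CPM in unwounded skin, where both classes had nearly the same level. LUM had 107 and 80.2 CPM at day 7, 34.8 and 21.0 CPM at day 90 and 15.6 CPM in unwounded skin. Between inhibitor and untreated grafts 0 of 3 tested genes differed by 1.5-fold at day 7, where 2.35% of genes were higher and 6.04% lower, and 0 of 2 at day 90, where 2.31% and 3.37% were. BGN had ratios of 1.07 (1.05 to 1.09) and 0.902 (0.883 to 0.922). KERA was at 8, 4, 4, 0 and 1 UMIs in this class, and 0 UMIs in the inhibitor day 90 graft allow up to 0.441 CPM.

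Set against the collagens they bind, the sum of SLRP transcripts was largest at day 7. UMIs of COL1A1, COL1A2 and COL3A1 together took 8.79% and 6.94% of fibroblast-like UMIs at day 7, 19.0% and 23.5% at day 90, with 25.4% in unwounded skin. For every 1000 of these collagen UMIs there were 118 and 158 SLRP UMIs at day 7, 60.9 and 51.2 at day 90, with 49.9 in unwounded skin. The ratio for BGN was 20.2 and 25.5 at day 7, 12.1 and 8.08 at day 90, with 3.33 in unwounded skin, and for KERA 0.341, 0.405, 0.262, 0.493 and 0.844. FMOD, at 1.95, 2.27, 2.81, 1.60 and 0.287 in the same order, and OGN, at 1.42, 1.37, 2.70, 1.33 and 1.48, were highest in the untreated day 90 graft. As collagen takes up to 25.4% of the UMIs of a class, the CPM of every other gene depends on it.

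Other genes of SLRP biology were followed in fixed lists. Of 9 other SLRP genes measured 3 reached 50 CPM. Osteomodulin (OMD), a keratan sulfate SLRP whose gene neighbours ASPN and OGN, had 63.7 and 50.7 CPM at day 7, 76.1 and 201 CPM at day 90 and 325 CPM in unwounded skin. OMD was 2.65-fold higher in the inhibitor than in the untreated day 90 graft, and ECM2 (325 against 350 CPM) was within 1.5-fold. EPYC and OPTC gave 1 to 6 UMIs per library in fibroblast-like cells. Of 6 tested enzymes that build chondroitin and dermatan sulfate chains, 0 differed between inhibitor and untreated graft at day 7 or day 90. Of all genes 3.13% were higher and 4.07% lower at day 7, and 6.38% and 5.57% at day 90. With 6 enzymes, counts of 0 are near these shares. Against unwounded skin 5 of 6 were higher in the untreated day 90 graft, beside 23.2% of all genes, among them the chain polymerising factor CHPF (114 against 55.1 CPM), and UGDH, which makes the UDP-glucuronate for these chains, was lower (51.4 against 129 CPM).

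Of 9 collagens that SLRPs bind, COL6A3 was higher in the inhibitor day 90 graft (2399 against 1489 CPM), beside 6.38% of all genes, and 8 lay within 1.5-fold. At day 7 COL14A1 was lower (244 against 452 CPM), beside 4.07% of all genes. With 1 of 9 genes each, these counts are near the shares of all genes. Among proteases known to cleave SLRPs, 3 of 9 tested were lower in the inhibitor day 90 graft, beside 5.57% of all genes, and MMP3 was at 3.68 CPM against 350 CPM. MMP13 had 0.0707 CPM against 245 CPM. Both genes lead cluster 0, which held 4 cells there. At day 7 MMP3 was higher with the inhibitor (240 against 69.7 CPM). HTRA1, the protease of this list with the highest level, was within 1.5-fold at both days. Of growth factors and receptors that SLRPs bind, CCN2 was lower in the inhibitor graft at day 7 (114 against 227 CPM), as 1 of 5 tested. At day 90 CCN2 was higher (648 against 395 CPM), and of 4 tested 1 was higher and 1 lower. Among other proteoglycan core proteins, VCAN was lower at day 7 (163 against 332 CPM), as 1 of 2 lower genes of 7 tested. GPC3 was higher at day 90 (101 against 36.2 CPM), and of 9 tested 1 was higher and 1 lower. Beside these counts, 4.07% of all genes were lower at day 7, and 6.38% were higher and 5.57% lower at day 90.

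Several of these genes are neighbours. In the RefSeq gene order of Sscrofa11.1, DCN, LUM and KERA lie next to each other on chromosome 5, OGN, OMD and ASPN on chromosome 3, FMOD and PRELP on chromosome 9, and BGN lies on chromosome X. Across 16 sums of fibroblast-like clusters by library, log2(CPM + 10) of DCN had a Pearson r of 0.66 with KERA and 0.55 with LUM, and LUM and KERA had -0.12. FMOD and PRELP, also neighbours, had 0.19, while FMOD had 0.77 with ASPN and -0.87 with LUM, and KERA had 0.77 with PRELP. The genes nearest to FMOD were THBS4 (0.98), MEST (0.97) and PTN (0.95), and those nearest to KERA were CD34 (0.93), FBLN1 (0.93) and NFIB (0.92). DCN was nearest to SERPINF1 (0.89), LUM to AK1 (0.91), ASPN to RCN2 (0.91), PRELP to SNX9 (0.92), OGN to LSP1 (0.95) and BGN to RPL7 (0.78). The points share libraries and clusters and differ in depth, so these values are a description. Over 39 sums of classes by library the nearest genes were CRABP2 for DCN (0.96), NDN for BGN (0.94), MFAP4 for ASPN (0.97), LRRC17 for LUM (0.97), ROR2 for FMOD (0.98), GLT8D2 for PRELP (0.98), CPZ for KERA (0.98) and ISLR for OGN (0.98).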

How the data were processed

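UMIs were measured with 10x Genomics 3′ chemistry, per the labels' protocols. The deposited values are raw UMI counts for each gene in each cell. Cell Ranger and Seurat 3.1.1 are named in the submitters' processing notes, and 3.1.0 is the software version in the matrix headers. Aligner, genome build and annotation: not given in the sources used here. Single 3′ tags are counted once per molecule and were not divided by length.

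Symbols were known for 15351 of 20286 identifiers, 677 through the RefSeq table of Sscrofa11.1. The filter asked for 500 or more genes per cell and no more than 25% mitochondrial UMIs (13 genes). Scrublet's automatic threshold marked 0, 0, 83, 3 and 5 cells, so the top-scoring cells were removed instead, at 0.8% per 1000 cells (524, 700, 255, 116 and 19). Clustering in Scanpy 1.11.5 used 2000 variable genes, 30 components, 20 neighbours and Leiden resolution 1, without the 8 genes, and gave 29 clusters, of which 5 stayed unnamed. Clusters were named where the marker score reached 0.8 with a lead of 0.5 and 3 or more raised markers, at least 50% of those measured. The next class also had to score below 0.6 of the best, blood and lymphatic endothelium aside. Checks of the leading genes and of UMI depth applied as well. UMIs were summed per class and library and scaled to CPM. Poisson, Clopper-Pearson and conditional binomial intervals were at 95%. A share or ratio against 0 used a floor of 3 counts. With 1 library per group no test was run. The 8 genes, the lists and the markers were chosen with earlier results of these data known. All 8 genes are named, and of each list up to 3 genes per comparison, the 2 with the largest ratio past 1.5-fold and the 1 with the highest level. The ratio scripts were tested on simulated data. In all 14 alternative settings were tried, on cell filters, doublets, clustering, thinning, scaling, weighting, the fold rule, the minimum level and recurring barcodes. Other software was igraph 0.11.9, scikit-learn 1.9.0, Matplotlib 3.10.9, SciPy 1.17.1, NumPy 2.4.6, pandas 2.3.3 and Python 3.11.15.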

Additional observations from a re-analysis of the deposited data

How the results depend on the processing

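Over the settings that give a ratio, 383 of 390 recomputed ratios of the 30 that passed 1.5-fold kept their direction. The 7 exceptions came with the shared clusters given the same weight, on the log2 scale: KERA at -0.16 and PRELP at -0.00 for the inhibitor against the untreated graft at day 90, PRELP at 0.19 for the untreated day 7 graft and DCN at 0.04 for the untreated day 90 graft against unwounded skin, and for day 90 against day 7 ASPN at -0.06 in the untreated and KERA at -0.67 and OGN at -0.25 in the inhibitor grafts. The shared-cluster setting leaves out every other fibroblast-like cluster. Against unwounded skin it rests on cluster 1 alone, which held 12.5% and 21.6% of these cells in the untreated day 7 and day 90 grafts. Between the day 90 grafts, and between the inhibitor grafts of both days, it rests on clusters 1 and 24. In fibroblast-like cells at day 7 (inhibitor against untreated) 1 gene was lower with doublets kept and 1 higher with shared clusters weighted the same, instead of 0. At day 90 the 2 higher genes became 1 with doublets kept, with the mean of per-cell CPM or with a 2-fold rule, and 0 with shared clusters, and the 2 lower genes became 1 with shared clusters or centred ratios and 0 with a 2-fold rule. With the mean of per-cell CPM, FMOD was lower as well as ASPN and OGN, at -0.74. Against unwounded skin, DCN of the untreated day 7 graft was no longer lower with the mean of per-cell CPM (-0.55) or a 2-fold rule. With shared clusters PRELP and OGN of that graft, at 0.19 and -0.29, were not lower, while LUM, at -0.87, was. The 3 lower genes of the untreated day 90 graft became 0 with shared clusters and 1 with a 2-fold rule. With centred ratios PRELP of the untreated day 90 graft, at -0.68, was lower as well. The 2 lower genes of the inhibitor day 90 graft became 0 with the mean of per-cell CPM or a 2-fold rule. With shared clusters LUM and KERA of that graft, at -0.47 and -0.27, were inside 1.5-fold, and OGN, at -0.83, was the 1 lower gene. For day 90 against day 7, the 4 higher genes of the untreated grafts became 2 with doublets kept or a 2-fold rule and 0 with shared clusters, and 0 lower genes became 1 when per-cell CPM was averaged. The 4 higher and 0 lower genes of the inhibitor grafts became 0 and 2 with shared clusters. With centred ratios DCN of these grafts, at 0.68, was higher as well. Among pericyte or smooth muscle-like cells, 0 lower genes became 1 with shared clusters and 2 with a minimum of 1 UMI at day 7, and 3 with that minimum at day 90. For counts that fell under a 2-fold rule the stricter rule is the cause by construction, and in the other cases the cause was not tested. With doublets kept, 626 and 795 fibroblast-like cells were named at day 7 in place of 1410 and 1416. Leaving out barcodes found in more than 1 library, and all settings for day 90 against day 7, were added after seeing the data. No paired analysis was possible because each group has 1 library. The 259 fibroblast-like cells of unwounded skin limit the precision of every ratio against it.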

Other observations

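BGN was also found in lymphatic endothelial-like cells of 3 grafts. At day 7 it had 182 CPM without and 204 CPM with the inhibitor (107 and 115 UMIs in 84 and 59 cells) and 263 CPM in the untreated graft at day 90 (168 UMIs in 62 cells). In the inhibitor graft at day 90 BGN had 16.9 CPM (11 UMIs in 63 cells), and 0 UMIs were found in 21 cells of unwounded skin, which allows up to 18.7 CPM. Blood endothelial-like cells had 61.9 to 144 CPM of BGN in the 5 libraries. Thinned detection of BGN in lymphatic endothelial-like cells was 32.4%, 32.1%, 22.8%, 3.33% and 0%, against 0% to 5.65% in T or NK-like cells, and without thinning it was 56.0%, 59.3%, 32.3%, 12.7% and 0%, against 3.59% to 8.45% in T or NK-like cells. Median depths were 6442.5 to 8167 UMIs in the former class and 1968 to 2408 UMIs in the latter.

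DCN UMIs were found in many keratinocyte-like cells. This class had 227 and 152 CPM at day 7, 138 and 85.2 CPM at day 90 and 197 CPM in unwounded skin, with 29 cells in the untreated day 90 graft. In the 4 libraries with at least 50 keratinocyte-like cells, 33.4%, 27.5%, 19.6% and 23.5% of them had a DCN UMI after thinning, against 3.07%, 1.95%, 2.78% and 6.25% of T or NK-like cells. The last 2 of these libraries held only 76 and 23 T or NK-like cells before thinning. Without thinning the shares were 64.8%, 57.8%, 50.8% and 55.9%, at median depths of 12363 to 14492.5 UMIs, against 2.53% to 8.70%. The level in these 4 libraries was 1.46% to 5.46% of the fibroblast-like DCN level, where the same share was 0.151% to 0.704% for LUM, 0.187% to 1.37% for COL1A1, 2.11% to 7.28% for BGN, 0.590% to 10.5% for FMOD and 0.380% to 5.06% for PRELP. In unwounded skin the shares of BGN, FMOD and PRELP (169, 21 and 13 UMIs) were above that of DCN (2.76%), and in the inhibitor day 90 graft that of BGN was. Where these DCN UMIs came from was not tested.

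Over all cells of a library, where class sizes and levels both enter, the inhibitor graft of day 90 had 0.346 times the ASPN and OGN levels of the untreated graft, 0.408 times its FMOD, 0.610 times its LUM and 1.31 times its KERA.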
